A study of Mus musculus with 9 samples.

Results

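The autophagy machinery was followed across age as 39 genes, picked by symbol for their part in initiation, membrane nucleation and expansion, conjugation, cargo capture and transcriptional control of autophagy. Their RNA was read by sequencing in flow-sorted brain microglia, which are macrophages that live in that tissue, of female wild-type C57BL/6 mice. Young mice were 6 months old, middle-aged mice 15 months and old mice 23 months, with no other treatment or allele named in the labels. Each age had 3 libraries, and each library pooled 3 mice, so the spread is between pools of animals and single animals cannot be seen. All 39 genes were among the 22036 in the deposited table. All 39 were also among the 14955 that passed a filter on low values (at least 3.32, the log2 of 10, in 3 or more of the 9 libraries). The transformation behind the values is unnamed, so that bound is not a known number of counts. The lowest value of any of the 39 in any library was 7.65, in Atg4d, so none lay near that filter.

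Autophagy delivers cytoplasmic proteins, organelles and engulfed material to the lysosome inside a double membrane, the autophagosome. The ULK kinase complex, held in check by mTOR, starts the process; a class III phosphatidylinositol 3-kinase marks the site, ATG9 and ATG2 proteins supply lipid, and a ubiquitin-like system attaches ATG8 proteins to the growing membrane, where cargo receptors dock. In microglia the same conjugation enzymes also act at phagosomes that hold engulfed debris, and TFEB and TFE3, transcription factors that mTOR keeps in the cytoplasm, switch on lysosomal and autophagy genes through the E-box CACGTG.

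That E-box ties these transcription factors to the genes they are known to switch on, so promoters that hold it are shown first. It was searched, on both strands, in the 250 bases before each RefSeq start (GRCm38.p6), a window available for 33 of the 39 genes. It was present at Atg3, Atg5 and Atg7, which is 3 of 33 genes or 9.09%, beside 6.86% of 27025 genes with such a window. The RefSeq start used for Atg7, 114671096 on chromosome 6, lies inside its GENCODE gene, which starts at 114643097, so that window is not upstream of the gene. That of Gabarap, 69991370, also lies inside its gene, so most of its window, which holds none of the motifs, is within the gene. The windows of Atg3, the enzyme that hands ATG8 proteins to lipid, and Atg5, a part of the ligase that completes that step, are printed 5′ to 3′ on the plus strand, with the E-box in capitals; that of Atg3 stops where its first annotated exon begins.
Atg3 chr16:45158579-45158784: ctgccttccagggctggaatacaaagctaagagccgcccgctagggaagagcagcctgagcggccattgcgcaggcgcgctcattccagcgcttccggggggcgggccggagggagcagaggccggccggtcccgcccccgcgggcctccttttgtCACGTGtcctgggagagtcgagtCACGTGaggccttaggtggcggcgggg
Atg5 chr10:44268089-44268338: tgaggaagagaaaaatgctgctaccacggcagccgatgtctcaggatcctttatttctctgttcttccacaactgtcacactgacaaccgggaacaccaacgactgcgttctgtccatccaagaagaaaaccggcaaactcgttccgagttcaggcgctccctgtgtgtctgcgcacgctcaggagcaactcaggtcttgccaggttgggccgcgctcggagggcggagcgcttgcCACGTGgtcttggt
The Atg3 window held the E-box at 2 places, 94 and 71 bases before the RefSeq start, and the Atg5 window held it once, 14 bases before. A match is a description of letters and shows no binding. The other motifs searched, on both strands, were TGACNNNGC, the core of the antioxidant response element, in 4 genes (Atg13, Tax1bp1, Ulk2 and Vmp1, 12.1% against 11.5%), TGACGTCA, the cyclic AMP response element, in Atg16l2 alone (3.03% against 1.77%), and TGTTTAC, a forkhead core, in none of them (0% against 3.54%). The Tax1bp1 and Atg16l2 matches belong to RefSeq starts, 52714165 and 101302088, that also lie inside their GENCODE genes. Those matches are within the gene and not upstream of it. The expression of the E-box genes is given with the conjugation enzymes.

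The libraries were checked against their labels before the comparison. Microglia markers were abundant, with mean values of 14.25 to 18.78 for the 13 of 16 listed markers in the table, while the neuron list had a median of 3.23 and the oligodendrocyte list one of 5.66. Markers of other myeloid cells were present too: the neutrophil list had a median of 13.4, the border macrophage list 12.2 and the monocyte list 11.8. The astrocyte, B cell, erythrocyte, endothelial and mural, and T and NK cell lists had medians of 6.62 to 8.68. The B cell marker Ighm had a mean of 16.16. In bulk RNA, fewer cells of a type and less RNA per cell cannot be told apart. Old replicate 3 stood apart from the other libraries, with a residual SD over the 39 genes of 0.249 on the log2 scale, where the other 8 had 0.0743 to 0.163. No read totals were used here, and the depth behind each value is unknown.

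Per kilobase of exon, the autophagy genes spanned a wide range of levels, with Gabarap, Vmp1, Map1lc3b and Atg5 at the top. On the log2 scale of normalized value per exonic kilobase, the mean of the 9 libraries ran from 4.90 for Atg4d, a protease that trims ATG8 proteins, to 12.65 for Gabarap, an ATG8 protein. Vmp1, an endoplasmic reticulum scramblase needed for autophagosome closure, followed at 12.18, Map1lc3b, which encodes the common autophagosome marker LC3B, at 11.92, and Atg5 at 11.30. Over the 9 libraries the range of Vmp1, 11.90 to 12.51, overlapped those of Map1lc3b, 11.72 to 12.13, and Gabarap, 12.31 to 12.91. The means kept their order at each age. In young, middle-aged and old libraries Gabarap had means of 12.38, 12.69 and 12.88. Those of Vmp1 were 11.97, 12.24 and 12.32, and those of Map1lc3b 11.84, 11.92 and 12.01. Becn1, which encodes the Beclin 1 scaffold of the lipid kinase, came next to last at 5.22. Both of the lowest genes share exonic bases with a gene on the opposite strand, 43.9% in Becn1 (Cntd1) and 19.3% in Atg4d (Kri1). In all, 14 of the 39 genes share exonic bases with another gene, among them Atg9a (31.8%, Gm29253, same strand) and Sqstm1 (17.3%, Mrnip, opposite strand). The part of such overlaps in these levels was not tested. Exon lengths of 1181 to 14690 bases came from GENCODE M21 and may differ from the authors' gene models.

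**Figure D1:**
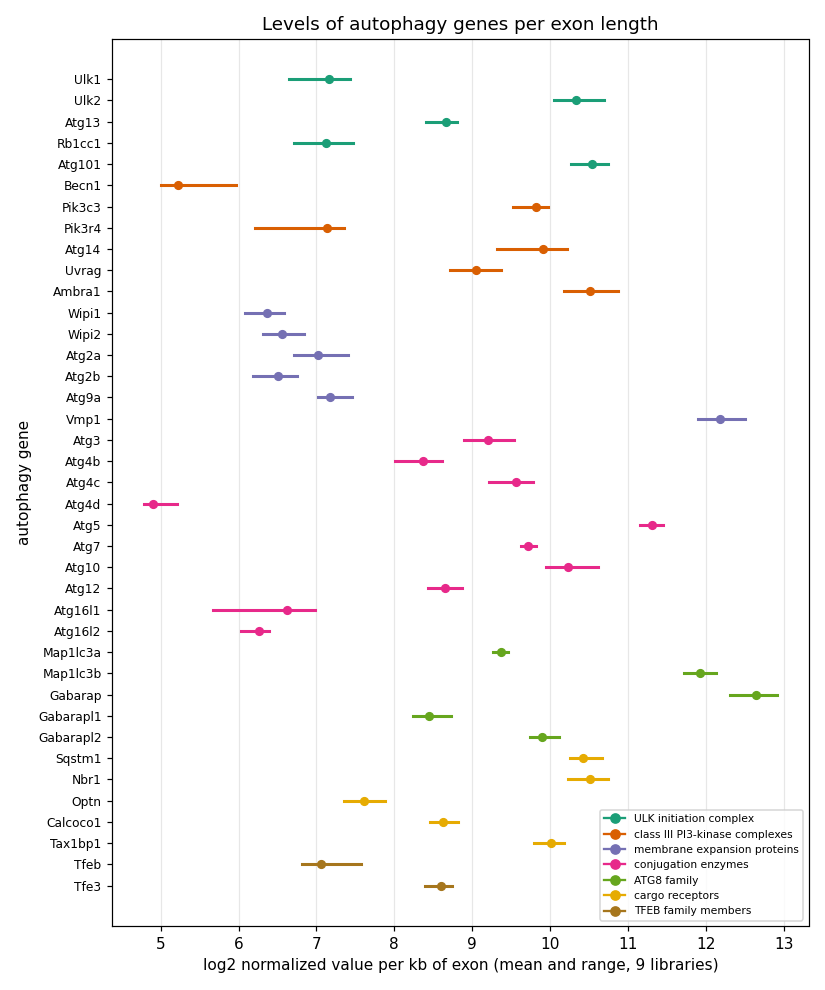
Mean (point) and range over 9 libraries (line) of the log2-scale normalized value per kilobase of exon (horizontal axis) for each of the 39 autophagy genes, coloured by role. Gabarap lies highest at 12.65 and Atg4d lowest at 4.90, and most genes move little between libraries beside the distance between genes.

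With age, 1 of the 39 genes passed the test. Gabarap rose between young and old libraries, from a mean of 13.26 ± 0.07 (SD, n = 3) to 13.76 ± 0.05 (SD, n = 3), a log2 difference of 0.50 or 1.41-fold, and its middle-aged mean of 13.57 ± 0.11 (SD, n = 3) lay between them. The other 38 genes did not pass at any age in the limma model over all genes, and neither direction prevailed: between old and young libraries, 17 of the 39 differences were positive and 22 negative, with a median of -0.04 beside -0.01 over all genes tested. The differences ran from -0.40 in Atg16l1 to 0.50 in Gabarap, and their median size was 0.174 beside 0.103 over all genes. That size and the other shares over all genes include genes of lower level, down to the filter at 3.32. They were not matched for level, so a larger median size here does not show that autophagy genes moved more than genes of like level. For 29 of the 39 genes the 95% interval of the old against young difference lay within 1.5-fold in either direction, as it did for 12481 of all 14955 genes, on the scale of the per-library table. Differences on that scale were smaller than in the authors' deposited table for 35 of the 39 genes, with a median size of 0.174 against 0.234, so the intervals hold for that scale alone.

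The counts of genes passing stood near or below the share over all genes tested. At an adjusted p under 0.05 (limma, Benjamini-Hochberg over all genes), 0 of 39 passed between middle-aged and young libraries, where 0.114% of all genes did, 1 of 39 between old and young libraries, where 2% did, and 0 of 39 between old and middle-aged libraries, where 0.174% did. At an unadjusted p under 0.05 from the same limma fit, the counts were 3 of 39 (2 higher, 1 lower) for the first comparison against 11.4% of all genes, 7 of 39 (3 higher, 4 lower) for old against young against 16.8%, and 5 of 39 (2 higher, 3 lower) for old against middle-aged against 10.2%. The limma F test over the 3 ages called 0 of 39, with 0.836% of all genes called, and 4 of 39 at an unadjusted p under 0.05 against 15.3%; Gabarap had the smallest adjusted p in it, 0.0531. Whether the step from 15 to 23 months differed from the step from 6 to 15 months was tested directly, and 0 of 39 passed, as did 0% of all genes; at an unadjusted p under 0.05 there were 2 of 39, Rb1cc1 and Pik3c3, against 7.9%. The middle-aged libraries enter both steps.

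Non-overlap of the libraries gave a similar picture. Middle-aged and young libraries did not overlap in 9 of the 39 genes (6 higher, 3 lower at 15 months), where 21.6% of all genes did not. For old and young libraries it was 8 of 39 (4 higher, 4 lower), with 24.5% of all genes, and for old and middle-aged libraries 6 of 39 (3 higher, 3 lower), with 12.9%. By their means, 13 genes were lower at each later age, 9 were higher at each later age, 10 had their highest mean at 15 months and 7 their lowest. In the authors' deposited tables, which come from their own test, 1 of the 39 had an adjusted p under 0.05 between middle-aged and young (Gabarap; 5.78% of their genes), 2 between old and young (Gabarap and Gabarapl1; 7.62%) and 0 between old and middle-aged (1.32%).

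**Figure D2:**
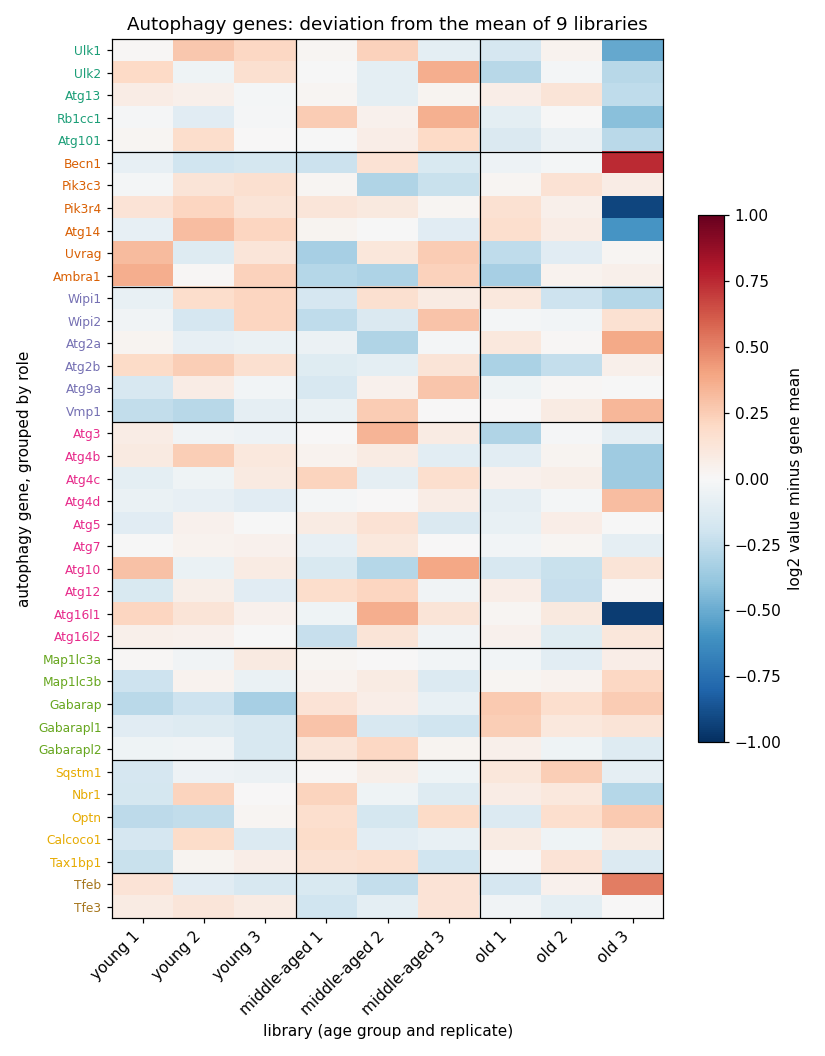
Each cell is the log2-scale value of one autophagy gene (vertical axis, grouped and coloured by role) in one library (horizontal axis) minus that gene's mean over the 9 libraries. The Gabarap row turns from blue in the 3 young libraries to red in the 3 old ones, while the deepest colours, in Becn1, Pik3r4 and Atg16l1, stand in old replicate 3 alone.

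The ULK initiation complex holds the kinases ULK1 and ULK2 with the scaffold subunits ATG13, FIP200 (from Rb1cc1) and ATG101. None of its 5 genes passed the limma test. All 5 old against young differences were negative, with a median of -0.22, and 2 of 5 had an unadjusted p under 0.05 in limma, beside 16.8% of all genes. Without old replicate 3, 4 of the 5 were negative, with a median of -0.17; Atg13 then differed by 0.07 and Rb1cc1 by -0.01.
Ulk1 stood at 9.87, 10.12 and 10.06 in young libraries 1 to 3, at 9.88, 10.09 and 9.75 in the middle-aged ones and at 9.68, 9.89 and 9.35 in the old ones. Old replicate 3 was the lowest library for Ulk1, and old replicate 2 lay inside the young range. Between old and young libraries it differed by -0.38 (SE 0.15, adjusted p = 0.239, limma), and by -0.23 without old replicate 3.
Ulk2, the more abundant kinase gene of the pair per exonic kilobase (10.33 against 7.16), stood at 13.11, 12.87 and 13.08 in young, 12.91, 12.82 and 13.28 in middle-aged and 12.64, 12.89 and 12.64 in old libraries. Its old and young libraries overlapped through old replicate 2, and the difference was -0.30 (SE 0.13, adjusted p = 0.292, limma).
Rb1cc1, the FIP200 scaffold, had its highest values at 15 months, 11.25, 11.04 and 11.35, above all young libraries (10.89 to 10.99) and all old ones (10.58 to 11.00). Its old against middle-aged difference of -0.39 had an adjusted p of 0.341 (limma). Atg101, a subunit that stabilizes ATG13, lay at 11.22 to 11.39 in young and 10.95 to 11.16 in old libraries without overlap, a difference of -0.22 with an adjusted p of 0.302 (limma). Atg13 differed by -0.05.

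The class III phosphatidylinositol 3-kinase complexes make the lipid signal that recruits the later proteins: Pik3c3 encodes the kinase, Pik3r4 its regulatory subunit, Becn1 the scaffold, Atg14 and Uvrag the subunits that steer it to autophagosomes or endosomes, and Ambra1 a Beclin 1 partner. None of the 6 passed between any ages (limma), 5 of 6 old against young differences were negative, and the median was -0.24, or -0.04 without old replicate 3. In 3 of the 6, Becn1, Pik3r4 and Atg14, old replicate 3 lay more than 0.5 from the mean of the other old libraries.
Becn1 stood at 7.96, 7.84 and 7.86 in young, 7.82, 8.18 and 7.89 in middle-aged and 7.98, 8.02 and 8.79 in old libraries. The old libraries all lay above the young ones, replicates 1 and 2 only just, at 7.98 and 8.02 against a highest young value of 7.96. The difference was 0.37 (SE 0.19, adjusted p = 0.364, limma) and 0.11 without old replicate 3. Becn1 shares 43.9% of its exonic bases with Cntd1 on the opposite strand. It is not stated whether the authors counted by strand, so reads on those shared bases cannot be assigned to either gene here.
Pik3r4 stood at 10.54, 10.62 and 10.54 in young, 10.53, 10.50 and 10.42 in middle-aged and 10.56, 10.45 and 9.49 in old libraries. All libraries but old replicate 3 lay between 10.42 and 10.62. The difference was -0.40 (SE 0.23, adjusted p = 0.413, limma) and -0.06 without old replicate 3.
Ambra1, the most abundant of the group per exonic kilobase (10.51), stood at 13.48, 13.14 and 13.35 in young, 12.84, 12.82 and 13.35 in middle-aged and 12.79, 13.16 and 13.18 in old libraries. The groups overlapped, and the old against young difference was -0.28 (SE 0.16, adjusted p = 0.426, limma). It was -0.16 without old replicate 1 and -0.35 without old replicate 3. Pik3c3 itself was lowest at 15 months: its middle-aged mean of 11.81 lay below 12.06 at both other ages, with an adjusted p of 0.385 against young and 0.462 against old (limma). Atg14 differed by -0.26 between old and young libraries, or -0.02 without old replicate 3, and Uvrag by -0.22.

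Membrane expansion was represented by 6 genes. Wipi1 and Wipi2 encode readers of the lipid signal, Atg2a and Atg2b lipid transfer proteins, Atg9a a scramblase that travels in seed vesicles, and Vmp1 a scramblase of the endoplasmic reticulum. None of the 6 passed between any ages (limma). From young to old libraries 4 differences were positive and 2 negative (3 and 3 without old replicate 3). In each direction 1 had an unadjusted p under 0.05 (limma), beside 16.8% of all genes.
Vmp1 stood at 13.88, 13.85 and 14.04 in young, 14.06, 14.38 and 14.13 in middle-aged and 14.13, 14.21 and 14.46 in old libraries. All middle-aged and all old libraries lay above all young ones. The old against young difference was 0.34 (SE 0.11, adjusted p = 0.167, limma), or 0.25 without old replicate 3. The middle-aged against young difference was 0.27 (adjusted p = 0.405, limma). The Vmp1 locus on chromosome 11 (86583865 to 86683836, GRCm38) also holds the microRNA gene Mir21a on the same strand, over 2.38% of its exonic bases.
Atg2b went the other way, at 10.45, 10.50 and 10.41 in young, 10.13, 10.16 and 10.38 in middle-aged and 9.94, 10.01 and 10.31 in old libraries. Neither later age overlapped the young libraries. Between old and young libraries it differed by -0.37 (SE 0.12, adjusted p = 0.157, limma), or by -0.48 without old replicate 3. Its paralogue Atg2a differed by 0.21 between old and young libraries and by 0.29 between old and middle-aged ones (adjusted p = 0.431 and 0.453, limma). Wipi1 differed by -0.24 between old and young libraries, Wipi2 by 0.03 and Atg9a by 0.03.

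The conjugation system was represented by 10 genes: the E1-like Atg7, the E2-like Atg3 and Atg10, the ubiquitin-like Atg12, the ligase parts Atg5 and Atg16l1 with its paralogue Atg16l2, and the proteases Atg4b, Atg4c and Atg4d. None passed between any ages (limma). Between old and young libraries 3 differences were positive and 7 negative, with a median of -0.06, and the interval lay within 1.5-fold for 9 of the 10.
Atg4b, the main protease that primes ATG8 proteins, stood at 11.51, 11.66 and 11.52 in young, 11.45, 11.50 and 11.31 in middle-aged and 11.32, 11.44 and 11.06 in old libraries. Both later ages lay wholly below the young one. The old against young difference was -0.29 (SE 0.11, adjusted p = 0.239, limma), or -0.18 without old replicate 3.
Atg16l1, whose protein places the ligase on the membrane, stood at 10.10, 10.01 and 9.93 in young, 9.84, 10.25 and 10.01 in middle-aged and 9.91, 9.98 and 8.94 in old libraries. Old replicate 3 alone was low. The old against young difference of -0.40 (SE 0.24, adjusted p = 0.431, limma) was -0.07 without that library.
Atg5, the most abundant of the group per exonic kilobase, stood at 12.43, 12.58 and 12.53 in young, 12.62, 12.69 and 12.39 in middle-aged and 12.46, 12.61 and 12.54 in old libraries. The ages overlapped throughout, and the old against young difference was 0.02 (95% interval -0.20 to 0.24, adjusted p = 0.939, limma).
The other E-box genes did not pass either. Atg3 differed by -0.13 between old and young libraries and by -0.28 between old and middle-aged ones (adjusted p = 0.463, limma), the latter without overlap. Atg7 differed by -0.06 between old and young libraries, with a 95% interval of -0.24 to 0.13. Across the remaining 5 genes of the system the old against young differences ran from -0.19 in Atg10 to 0.15 in Atg4d.

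The ATG8 proteins are the ubiquitin-like tags that end up on the autophagosome membrane, in an LC3 branch (Map1lc3a, Map1lc3b) and a GABARAP branch (Gabarap, Gabarapl1, Gabarapl2); the second is known for its part in autophagosome closure and fusion with lysosomes. Of the 5 genes, 1 passed between old and young libraries, where 2% of all genes did (limma), and it rose. The differences were positive in 4 of the 5, and the median was 0.17, or 0.11 without old replicate 3.
Gabarap, on chromosome 11 (69991143 to 69994951, plus strand, GRCm38), stood at 13.26, 13.33 and 13.20 in young, 13.67, 13.60 and 13.45 in middle-aged and 13.79, 13.70 and 13.79 in old libraries. The 3 ages did not overlap at all: the lowest middle-aged library lay above the highest young one, and the lowest old library above the highest middle-aged one. The old against young difference was 0.50 (SE 0.09, 95% interval 0.31 to 0.69, adjusted p = 0.0179, limma), rank 114 by p among the 14955 genes. The steps on the way were 0.31 by 15 months (adjusted p = 0.219, limma) and 0.19 from there to 23 months (adjusted p = 0.494, limma), and the difference between these steps was -0.12 (SE 0.15).
The direction of the Gabarap difference was the same in all 20 alternative fits, which gave 0.468 to 0.541. It fell short of the threshold when young replicate 1, young replicate 3 or old replicate 1 was left out, with adjusted p of 0.0792, 0.127 and 0.0668 (limma), and passed in the other 6 fits without one library. In the authors' deposited tables Gabarap was higher by 0.38 on the log2 scale at 15 months (adjusted p = 0.0268) and by 0.64 at 23 months (adjusted p = 1.22e-07), each against young.
Summed levels of several marker lists also differed between the ages. The border macrophage markers summed to 17.41 to 17.50 on the log2 scale in young, 16.93 to 17.25 in middle-aged and 16.77 to 17.17 in old libraries, and 2 of their 16 genes fell between young and old libraries while none rose (limma). The microglia markers summed to 20.88 to 21.06 in young and 20.63 to 20.82 in old libraries, with 2 of 13 genes higher and 2 lower. A sum follows the most abundant markers. As the mean deviation of each gene from its own mean, the microglia list overlapped between the ages. It stood at -0.010, 0.137 and -0.010 in young and at 0.044, 0.002 and -0.051 in old libraries. The monocyte markers summed to 15.64 to 16.16 in young and 15.91 to 16.58 in old libraries, with 3 of 16 genes higher, and the neutrophil markers to 18.32 to 19.10 and 18.05 to 19.07, with none of 16 called. No marker of these 4 lists in the table was at 0, the lowest mean being 4.03. At 15 months the neutrophil markers summed to 18.91 to 20.02, with 15 of 16 differences from young positive and none called (5 at an unadjusted p under 0.05, limma), and the monocyte markers to 15.97 to 16.96, with 16 of 16 positive and none called (also 5). The T and NK cell markers, at lower levels, had 10 of 12 old against young differences positive and 2 negative, with 1 called, higher (limma). At an unadjusted p under 0.05 (limma), 6 were higher and 1 lower. Immediate early genes, which respond to cell activation and handling, were positive in 16 of 16 from young to middle-aged libraries, none of them called (12 at an unadjusted p under 0.05, limma), and negative in 16 of 16 from middle-aged to old ones, 2 of them called. Their sums were 18.85 to 19.23 in young, 19.28 to 19.63 in middle-aged and 18.97 to 19.13 in old libraries. Over all genes, 11.4% had an unadjusted p under 0.05 between middle-aged and young libraries, and 2% were called between old and young ones (limma). The part of these shifts in the values of Gabarap, or in the 15-month values of Rb1cc1, Pik3c3, Vmp1 and Gabarapl2, was not tested.
Gabarapl1, the closest relative of Gabarap in the branch, stood at 9.34, 9.32 and 9.29 in young, 9.73, 9.29 and 9.25 in middle-aged and 9.70, 9.56 and 9.58 in old libraries. The old libraries all lay above the young ones, and middle-aged replicate 1 lay with the old libraries. Between old and young libraries it differed by 0.29 (SE 0.13, adjusted p = 0.285, limma). In the authors' deposited table it was 0.53 with an adjusted p of 0.0168, so the gene passed there and not here; the difference was also larger there. Gabarapl1 shares 28.3% of its exonic bases with 1700101I11Rik on the opposite strand, and the counting by strand is again not known.
Map1lc3b stood at 14.63, 14.87 and 14.77 in young, 14.87, 14.92 and 14.70 in middle-aged and 14.85, 14.87 and 15.04 in old libraries. The ages overlapped, and the old against young difference was 0.17 (SE 0.10, adjusted p = 0.426, limma), which became 0.10 when young replicate 1 was left out and 0.11 when old replicate 3 was. Map1lc3a varied least of the 5, between 9.50 and 9.70 over all 9 libraries, with a difference of -0.04. Gabarapl2 was highest at 15 months, 11.15 to 11.33, without overlap with the young libraries (10.96 to 11.08), and differed by 0.20 there (adjusted p = 0.477, limma) and by 0.04 between old and young libraries.

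**Figure D3:**
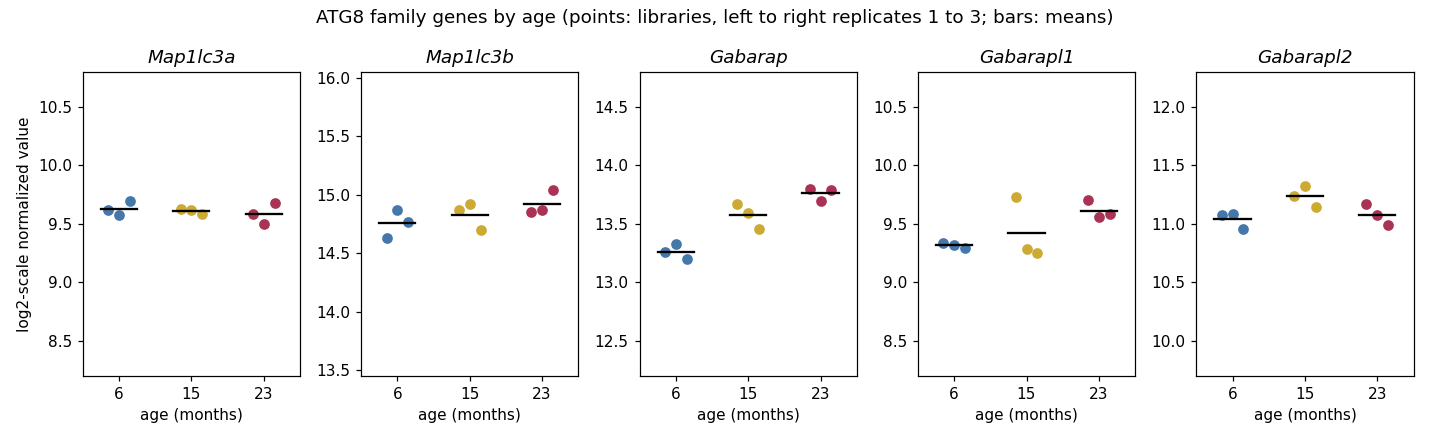
Log2-scale normalized values (vertical axes, each panel spanning the same number of log2 units) of the 5 ATG8 family genes by age in months; points are libraries, replicates 1 to 3 from left to right, and bars are group means. Gabarap climbs from 13.20 to 13.33 in the young libraries to 13.70 to 13.79 in the old ones with no overlap between ages, while Map1lc3a stays between 9.50 and 9.70.

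Cargo receptors tie ubiquitinated or damaged material to ATG8 proteins. None of the 5 genes passed between any ages (limma). None had an unadjusted p under 0.05 between old and young libraries (limma), beside 16.8% of all genes. Old and young libraries overlapped in all 5, while in 24.5% of all genes they did not. Of the 5 differences, 4 were positive, with a median of 0.08. Without old replicate 3, 5 were positive, with a median of 0.12. All 5 intervals lay within 1.5-fold.
Sqstm1, which encodes p62, itself degraded by autophagy, stood at 11.9995, 12.12 and 12.11 in young, 12.18, 12.23 and 12.12 in middle-aged and 12.28, 12.42 and 12.08 in old libraries. Old replicate 3 was the lowest of the old libraries and lay within the young range. The old against young difference was 0.18 (SE 0.10, adjusted p = 0.409, limma), or 0.10 without old replicate 2 and 0.27 without old replicate 3.
Optn, for optineurin, a receptor for damaged mitochondria, stood at 9.27, 9.28 and 9.55 in young, 9.69, 9.35 and 9.72 in middle-aged and 9.38, 9.69 and 9.79 in old libraries. The ages overlapped, and the old against young difference was 0.26 (SE 0.15, adjusted p = 0.414, limma), or 0.18 without old replicate 3.
Tax1bp1, a receptor for protein aggregates, had the highest mean of the group before division by length and stood at 13.11, 13.36 and 13.40 in young, 13.49, 13.50 and 13.13 in middle-aged and 13.35, 13.47 and 13.20 in old libraries. The ages overlapped and differed by 0.05 between old and young (adjusted p = 0.881, limma). Nbr1 and Calcoco1 differed by -0.05 and 0.08.

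TFEB and TFE3, the transcription factors of the pathway, act mainly through their location in the cell, which RNA levels do not show. Tfeb stood at 9.70, 9.46 and 9.41 in young, 9.41, 9.32 and 9.71 in middle-aged and 9.40, 9.61 and 10.07 in old libraries. Old replicate 3 was its highest library. Between old and young libraries it differed by 0.17 (SE 0.17, adjusted p = 0.653, limma) and -0.02 without that library.
Tfe3, the more abundant of the pair per exonic kilobase (8.60 against 7.06), stood at 11.89, 11.93 and 11.89 in young, 11.61, 11.71 and 11.95 in middle-aged and 11.77, 11.71 and 11.81 in old libraries. All old libraries lay below all young ones, by a difference of -0.14 (SE 0.10, adjusted p = 0.531, limma), while middle-aged replicate 3 was the highest of all 9.

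**Figure D4:**
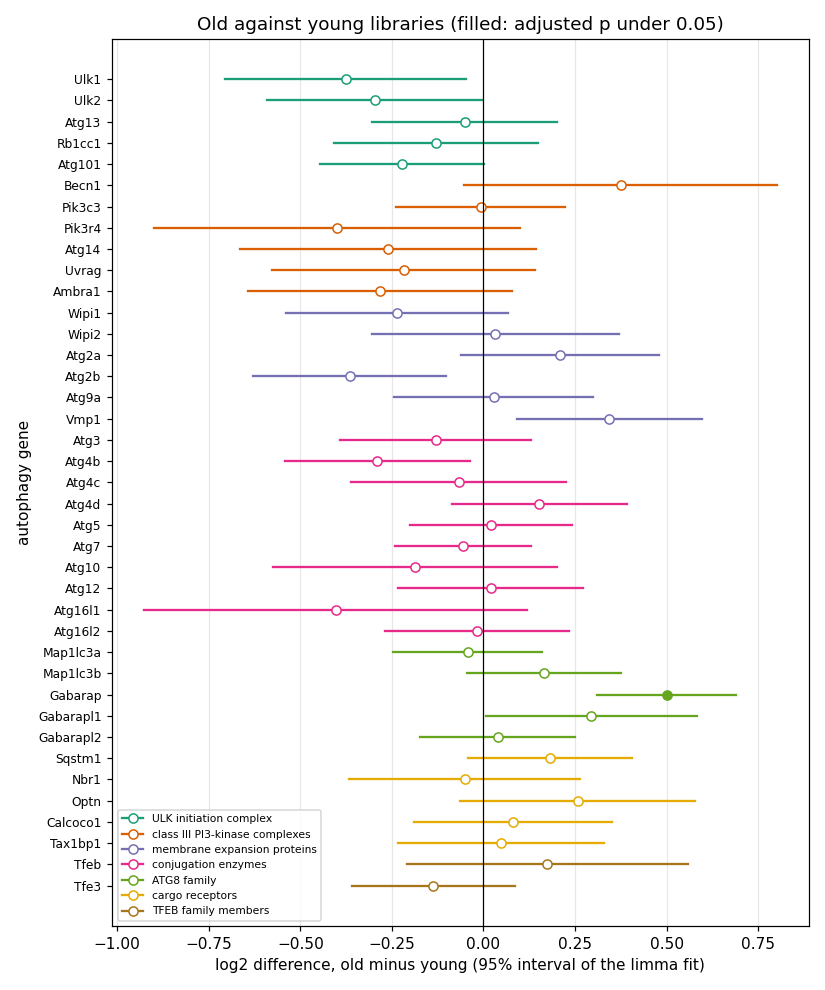
Log2 difference between old and young libraries (horizontal axis; point, with the 95% interval of the limma fit as a line) for each of the 39 autophagy genes, coloured by role. Gabarap, at 0.50, is the only filled point (adjusted p under 0.05), and all 5 ULK complex genes lie left of zero without passing, Atg13 only with old replicate 3 included.

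Old replicate 3 set several of the widest intervals. It lay more than 0.5 on the log2 scale from the mean of old replicates 1 and 2 in 5 of the 39 genes, or 12.8%, beside 9.68% of all genes tested, and old replicates 1 and 2 lay that far from each other in 0 of the 39 and in 2.09% of all genes. The shares over all genes were not matched for level. The deviations were -1.01 in Pik3r4, -1.01 in Atg16l1, -0.71 in Atg14, 0.79 in Becn1 and 0.57 in Tfeb. Atg14 stood at 12.19, 12.10 and 11.43 in the old libraries, beside 11.94 to 12.33 in the young ones. The library was the lowest of the 9 for 12 of the 39 genes, where the next, middle-aged replicate 1, was lowest for 6. Being the highest for 7 was not particular to it, since middle-aged replicates 2 and 3 were the highest for 8 and 7. For Gabarap, old replicate 3 stood with the other old libraries, at 13.79 beside 13.79 and 13.70. Without old replicate 3 the Gabarap difference was 0.49 (adjusted p = 0.0432, limma).

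**Figure D5:**
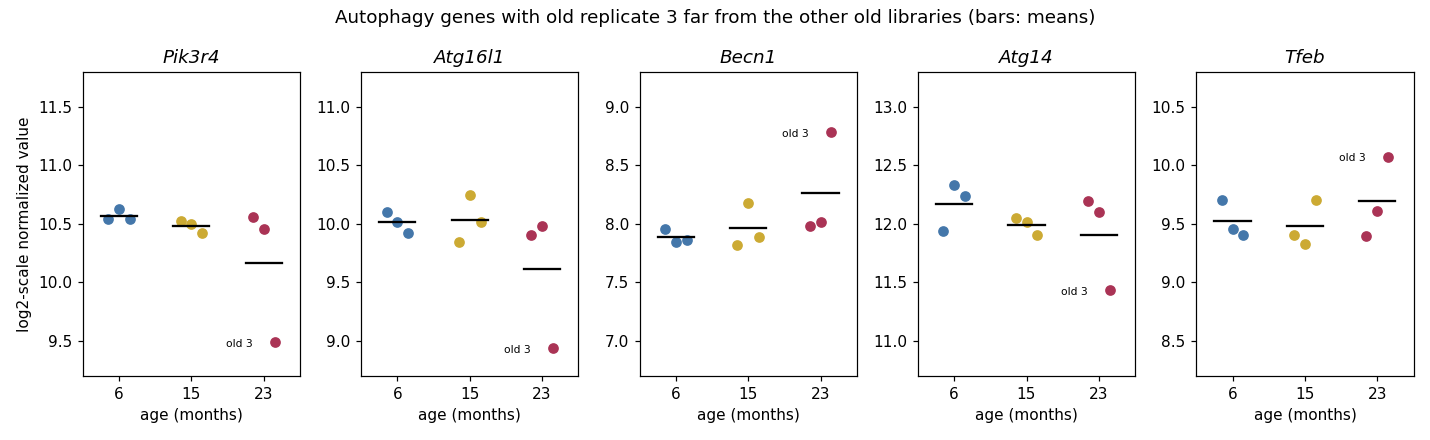
Log2-scale normalized values (vertical axes) by age in months for the 5 autophagy genes in which old replicate 3 lay more than 0.5 from the mean of the other old libraries; points are libraries and bars are group means. In each panel old replicates 1 and 2 lie among or near the younger libraries and old replicate 3 lies apart, low in Pik3r4, Atg16l1 and Atg14 and high in Becn1 and Tfeb.

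Genes that work beside the machinery were taken from 4 further lists, and 0 of their 67 tested genes passed between any ages (limma). Over all genes, 0.114% passed between middle-aged and young libraries, 2% between old and young ones and 0.174% between old and middle-aged ones. Of 18 initiation and nucleation regulators, 7 old against young differences were positive and 11 negative. Tbk1, a kinase that phosphorylates cargo receptors, had a difference of -0.40 (adjusted p = 0.167, limma), with 13.22, 13.14 and 13.32 in young and 13.04, 12.96 and 12.49 in old libraries, which did not overlap. Rubcnl, which encodes Pacer, a regulator of autophagosome maturation, had one of -0.47 (adjusted p = 0.205, limma), with 12.69, 12.63 and 12.54 in young and 12.47, 12.32 and 11.68 in old libraries. Both had their lowest value in old replicate 3, and without it both differences were -0.23.
Of 19 other selective receptors, 9 differences were positive and 10 negative. Fkbp8, a mitophagy receptor, differed by 0.40 and Bnip3l, another, by 0.24 (adjusted p = 0.167 and 0.242, limma), and old and young libraries did not overlap in either. Of 16 genes of autophagosome fusion with lysosomes, 6 were positive and 10 negative. Vps11, a tethering subunit, differed by -0.30 and Tecpr1, a tether on lysosomes, by 0.33 (adjusted p = 0.187 and 0.267, limma), or by -0.19 and 0.20 without old replicate 3. Of 14 partners and regulators of the TFEB family, 5 were positive and 9 negative, among them Foxo3, a forkhead factor, at -0.39, and Rragd, a GTPase that links TFEB to mTOR, at 0.19 (adjusted p = 0.167 and 0.402, limma).
By the authors' deposited tables, genes of these lists with an adjusted p under 0.05 between old and young included Prkaa2, a catalytic subunit of AMPK, with a log2 change of 0.72, and Foxo3 with -0.49. Between middle-aged and young their tables had Rubcnl at -0.45 and Vps11 at -0.37. The per-library values gave 0.24 for Prkaa2, whose mean was 6.80 (adjusted p = 0.271, limma).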

How the data were processed

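Per the labels' protocols, microglial RNA was extracted after flow sorting and made into libraries with a low-input kit (SMARTer Ultra Low). The submitters' processing notes list CASAVA, cutadapt 1.13, STAR 2.5.3, DESeq2 1.16.1 and the mm10 build; their roles, the read counter and annotation, and its use of strand, are not stated in what was used here. The deposited per-library values, -2.14 to 20.05, are log2-scaled by an unnamed transformation, and entered the fit unchanged. Per the file headers, the authors' comparison tables hold for each gene a base mean (a mean signal), a log2 fold change with its standard error, a test score, and a p-value before and after adjustment. Depth is unknown, since the values did not give back whole reads, and no read-based test was made.

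One linear model with 3 ages as groups was fitted to the 14955 genes that passed the filter in limma 3.58.1 (R 4.3.3), using a variance trend and two-sided moderated tests. P-values were adjusted by Benjamini-Hochberg over all genes tested, with 0.05 as threshold, and the model had 6 residual and 4.57 prior degrees of freedom. With 3 libraries per age the smallest exact permutation p is 0.1, which is why single genes were tested with the pooled spread of the model. The procedure was also run on simulated data in which each gene had the same spread in all libraries. That does not test the case of a library that stands apart, and its outcome is not given here. The 39 genes, their roles and all lists were chosen with earlier results of these data known. Values in every library are given for genes called, for the 2 genes per role with the smallest p for old against young and the one with the highest mean value per role, and for genes whose call differs in the authors' tables; other values named were chosen after they were seen. Among the further lists, the 2 genes per list with the smallest p are named. One gene of these lists is not reported here. Coordinates and exon lengths come from GENCODE M21 on GRCm38, which held all 39 symbols, and promoters from RefSeq on GRCm38.p6. The alternatives changed the filter, the pseudocount, the scaling, the variance model or the weights of libraries, added a replicate block, fitted 2 ages alone, or dropped each library in turn. Figures were drawn with matplotlib 3.10.9.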

Additional observations from a re-analysis of the deposited data

How the results depend on the processing

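Of 98 counts of autophagy genes called under the alternatives, 87 equalled the main count, which was 0 or 1. Of 400 single-gene values, 386 kept their direction and their side of the threshold, 3 fell below it, 5 rose above it and 6 changed sign. Only Gabarap between old and young libraries was called in the main fit, and all 3 that fell below the threshold were its own. The other values mostly stayed uncalled, so the totals say little about that call. With library weights, old replicate 3 had a weight of 0.241 and young replicate 3 one of 3.99. In that fit limma called 1 of the 39 genes (Gabarap) between middle-aged and young libraries, beside 312 of all 14955 genes. Between old and young libraries it called 5 of the 39 (Ulk2, Ambra1 and Atg2b lower, Gabarap and Gabarapl1 higher), beside 1609 of all 14955. Leaving out each library in turn gave 0 to 1 genes for old against young, 0 without young replicate 1, young replicate 3 or old replicate 1, and 0 to 1 for the F test, 1 without middle-aged replicate 3. The F test called 1 gene, Gabarap, with a filter at log2 of 50, a pseudocount of 10, no variance trend or a robust variance prior, and 2, Atg2b and Gabarap, with library weights. The cause of these changes was not tested. For the F test, the fits without 1 library and the replicate block below, the share over all genes is not given. Those counts describe single genes, not the autophagy genes as a set. The genes that changed sign had old against young differences near 0: Atg5 (-0.0239 with library weights, -0.0242 without young replicate 1, -0.0162 without old replicate 2), Tax1bp1 (-0.0432 without young replicate 1, -0.0189 without old replicate 2) and Tfeb (-0.0153 without old replicate 3). Leaving out each library in turn, they ranged from -0.0242 to 0.0567, -0.0432 to 0.118 and -0.0153 to 0.322. Medians of the libraries differed from their mean by no more than 0.0126, and centring or quantile scaling changed no call of the named genes.

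The main fit did not treat equal replicate numbers as pairs. Deviations of the 9 same-numbered pairs correlated at -0.242 to 0.234, above 0.1 in 3. Pairs with different numbers were not computed, so these values cannot decide whether samples were paired. With the replicate block, 1 gene was called between old and young libraries, Gabarap (adjusted p = 0.0395, limma), and 0 in each other comparison. Unknown depth, 3 pools per age and 1 library that stands apart limit these results: differences under about 1.5-fold in single autophagy genes were mostly not resolved.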
